A study of Mus musculus with 2 samples.

Results

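The 10 genes described here belong to families of plasma proteins, mostly made in the liver, that inhibit proteases or carry related functions. They are the macroglobulins A2m, Pzp and Mug1 and the inter-alpha inhibitor heavy chains Itih1, Itih2, Itih3 and Itih4. The others are the bikunin precursor Ambp and the fetuins Ahsg and Fetub. All were chosen by family and found by gene symbol in the array annotation. No signal enters that rule, but the families were picked with earlier results of these data known. All 10 were found among 18193 named genes. Livers of female wild-type C57BL/6 mice, 8 weeks old, were compared between a sham group and an acute kidney injury (AKI) group that had 30 min of warm renal ischemia on both sides followed by reperfusion. Livers were taken 24 h after the operation, and frozen liver of 3 mice was pooled in each group. Each pool was measured on 1 Affymetrix expression array, so there were 2 arrays and no replicate. The question was how gene expression in the liver differs once the kidneys have been injured. No test between the groups was possible, so no p-value is given, and "higher" and "lower" refer to these pools alone.

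Macroglobulins are large plasma proteins that trap an attacking protease when it cuts their bait region, and the complex is then cleared through the receptor Lrp1. In the mouse the abundant alpha-macroglobulin of plasma is the product of Pzp, for which A2m is an older synonym in the RefSeq gene table, and the gene now called A2m is a separate neighbour of Mug1. Inter-alpha inhibitors consist of heavy chains joined through a chondroitin sulfate chain to bikunin, a Kunitz-type inhibitor cut from the Ambp precursor, which also yields the lipocalin alpha-1-microglobulin. Itih1 and Itih2 chains are found together with bikunin in inter-alpha inhibitor, Itih3 with bikunin in pre-alpha inhibitor, and Itih4 circulates without bikunin. The heavy chains can be passed on to hyaluronan, a matrix polysaccharide. The fetuins belong to the cystatin superfamily. Ahsg (fetuin-A) keeps calcium phosphate in solution and is a classical negative acute phase protein of the liver, whereas Fetub (fetuin-B) inhibits metalloproteases of the astacin family.

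None of the 10 genes differed by 2-fold between the pools. Of all 13128 genes past the level filter, which asked for a signal at or above the median of the array on at least 1 array, 22.9% differed by 2-fold, 10.4% being higher in the AKI pool and 12.4% lower. Among the 10175 genes at least as bright as A2m, the dimmest of the 10, the share past 2-fold was 19.7%. Itih4 stood highest among the 10 and Itih1 and Ahsg lowest. All 10 passed this filter, 4 were above 0 and 6 below it, and their median log2 difference (AKI minus sham) was -0.14, against -0.02 over all genes. The gap between these medians depended on the scaling: they were -0.02 and -0.03 with lowess centring, and -0.26 and -0.03 with quantile normalization. Each of the 10 was read by 1 probe set of its own, so none has a repeat measurement. The nearest estimate of error comes from 41 other genes of similar brightness with several probe sets, whose differences had an SD within genes of 0.50 on the log2 scale. That SD includes different transcripts and leaves out the mice. All differences here are on the scale of log2(signal + 71.8), where the added constant is the 25th percentile of the table.

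**Figure D1:**
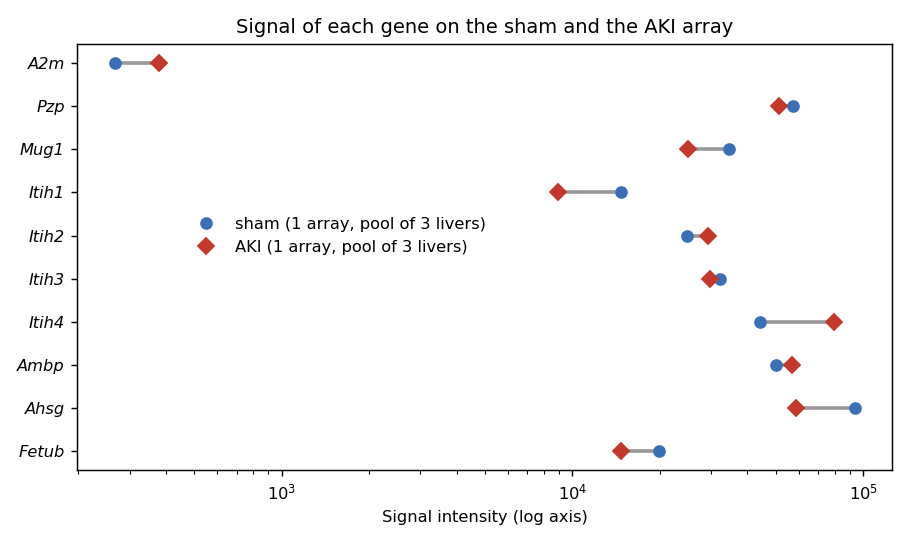
Signal intensity of each of the 10 genes (log axis) on the arrays of the sham group (circles) and the AKI group (diamonds), each array holding 1 pool of 3 livers, so there are no error bars. Itih4 has the widest gap to the right, from 44199.1 to 79458.3, Itih1 and Ahsg the widest to the left, and A2m lies far to the left of the others.

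The inter-alpha inhibitor heavy chains had differences of both signs in these pools. The signal of Itih4, the heavy chain known as an acute phase protein in several species, was 44199.1 after sham surgery and 79458.3 after kidney injury, a ratio of 1.80 and a log2 difference of 0.85. The signal of Itih1 was 14683.2 after sham surgery and 8939.2 after kidney injury. It was thus 1.64-fold lower, a log2 difference of -0.71. Itih2 had 24849.6 after sham surgery and 29237.2 after kidney injury (0.23), and Itih3 had 32171.5 and 29670.6 (-0.12). The differences of Itih2 and Itih3 lay within the SD of 0.50 between probe sets of bright genes. Those of Itih4 and Itih1 lay outside it, on opposite sides. Values beyond 1 SD also arise from error alone, so this does not set Itih4 and Itih1 apart from error. The gap between Itih4 and Itih1 was 1.56 on the log2 scale, a 2.94-fold shift of one against the other. Such a gap between genes stays as it is when both arrays are multiplied by any constant. Itih2 was 0.95 above Itih1, although their products share the inter-alpha inhibitor complex. Each gap carries the error of both genes. With 1 array per group, whether Itih1 truly differs from Itih4 or Itih2 cannot be told.

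Itih4, Itih3 and Itih1 follow one another on chromosome 14 in this order, with no other protein-coding gene listed between them. Their differences of 0.85, -0.12 and -0.71 thus spread over a single gene cluster. Of the protein-coding genes next to the cluster, Mustn1 and Nek4 were below the level filter. Itih2 lies on chromosome 2 beside Itih5, another heavy chain gene, whose brightest probe set was at 0.12 with signals of 534.8 and 589.7.

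The promoters of these neighbours are printed because the genes share a locus and had differences of both signs. That of Ahsg, which is described further on, is printed too. Each window holds 250 bases before and 50 after the annotated start, 5′ to 3′ on the strand of the gene, from RefSeq (build GRCm38.p6). Capitals mark matches, on either strand, to any of 5 motifs: STAT3 (TTCNNNGAA), C/EBP (TTGCNNAA), HNF1 (GTTAAT), NF-kB (GGGA and TTCC with any 2 bases between) and the glucocorticoid receptor (ACANNNTGT). Windows were found for 9 of the 10 genes, not for A2m.
Itih4 (chr14:30886226-30886525, plus strand): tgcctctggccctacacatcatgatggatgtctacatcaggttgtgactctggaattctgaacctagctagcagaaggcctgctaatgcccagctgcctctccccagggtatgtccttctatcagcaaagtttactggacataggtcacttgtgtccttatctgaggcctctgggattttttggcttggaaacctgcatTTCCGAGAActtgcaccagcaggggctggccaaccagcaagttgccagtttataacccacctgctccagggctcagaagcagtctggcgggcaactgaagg
Itih3 (chr14:30923538-30923837, minus strand): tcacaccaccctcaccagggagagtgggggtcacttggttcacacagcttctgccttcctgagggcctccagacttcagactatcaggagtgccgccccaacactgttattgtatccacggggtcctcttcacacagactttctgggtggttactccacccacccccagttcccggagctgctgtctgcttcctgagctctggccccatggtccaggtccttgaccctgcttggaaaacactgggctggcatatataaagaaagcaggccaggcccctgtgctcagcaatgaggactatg
Itih1 (chr14:30943240-30943539, minus strand): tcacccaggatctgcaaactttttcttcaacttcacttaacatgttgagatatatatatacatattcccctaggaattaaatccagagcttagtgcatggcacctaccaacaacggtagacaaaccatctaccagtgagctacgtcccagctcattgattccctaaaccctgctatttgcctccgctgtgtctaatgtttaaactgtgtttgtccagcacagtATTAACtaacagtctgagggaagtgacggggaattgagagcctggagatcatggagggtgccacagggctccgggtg
Ahsg (chr16:22891765-22892064, plus strand): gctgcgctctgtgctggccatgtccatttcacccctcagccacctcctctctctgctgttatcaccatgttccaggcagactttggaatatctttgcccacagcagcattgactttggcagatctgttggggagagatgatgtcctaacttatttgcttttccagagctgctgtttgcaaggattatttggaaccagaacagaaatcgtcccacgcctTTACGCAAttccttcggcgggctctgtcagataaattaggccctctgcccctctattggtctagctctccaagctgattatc

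The STAT3 letters, which the interleukin-6 signal acts through in liver, were in 1 of the 9 genes, Itih4, as TTCCGAGAA from base -51 to base -43 counted from the start. Over all 32851 windows of the table, 8.3% held a match to these letters. The HNF1 letters were in the windows of Pzp, Mug1 and Itih1, against 7.1% of all windows, and in Itih1 they lay from -27 to -22. C/EBP letters were in Itih2 and Ahsg, against 10.8% of all windows. In Ahsg they read TTGCGTAA on the opposite strand, from -32 to -25. NF-kB letters (1.47% of all windows) and glucocorticoid receptor letters (6.85%) were in none of the 9. No 2 of the motif matches in these windows overlapped. A match describes letters only, and binding was not measured.

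Ambp, the source of the bikunin that the heavy chains are attached to, had signals of 50163.0 after sham surgery and 56710.1 after kidney injury, a ratio of 1.13 and a log2 difference of 0.18. This was 0.06 below Itih2, 0.29 above Itih3 and 0.89 above Itih1. Of the bikunin complex genes, Ambp, Itih2 and Itih3 therefore lay within 0.35 of one another, and Itih1 was the lowest, 0.59 below Itih3. A gap between genes carries the error of each, and the SD between probe sets of bright genes was 0.50. Whether Itih1 truly differs from Itih3 therefore cannot be told.

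Both fetuins were lower in the AKI pool. Ahsg went from 94030.7 after sham surgery to 58689.9 after kidney injury. This is a 1.60-fold lower signal and a log2 difference of -0.68, the second lowest of the 10. Its signal on the sham array was at percentile 99.96 of all non-control probe sets. Fetub had signals of 19917.4 and 14728.8, 1.35-fold lower (-0.43), which lies within the SD of 0.50. They are neighbours on chromosome 16, followed by Hrg, the gene of histidine-rich glycoprotein and also a member of the cystatin superfamily, which was at -0.15. The differences along this locus were thus -0.68, -0.43 and -0.15 from Ahsg to Hrg, all below 0. Only that of Ahsg lay outside the SD of 0.50, which does not set it apart from error. Being below 0 was common at this brightness. It held for 156 of the 262 genes outside the 10 that were at least as bright as Itih1. On the other side of Ahsg lies the chaperone gene Dnajb11, at 0.94 with signals of 1374.4 and 2694.6.

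Among the macroglobulins the 3 genes gave 3 different values. Pzp had signals of 57336.4 after sham surgery and 51282.1 after kidney injury (-0.16). Mug1, which encodes murinoglobulin, a single-chain macroglobulin of rodents, had 34449.9 and 25034.1, 1.38-fold lower (-0.46). A probe set that the annotation assigns jointly to Mug1, Mug2 and Mug-ps1 had 44461.7 and 28482.2 (-0.64) and so went the same way, but it cannot be given to 1 gene. A2m had signals of 266.3 and 379.3, a ratio of 1.42 and a log2 difference of 0.42. The A2m probe set was close to the level filter, which was 225.7 for the sham array and 231.8 for the AKI array. The other 9 were at percentile 98.5 or above on both arrays. In the class of the dimmest genes with several probe sets the SD within genes was 0.86, so the A2m difference was smaller than that error.

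**Figure D2:**
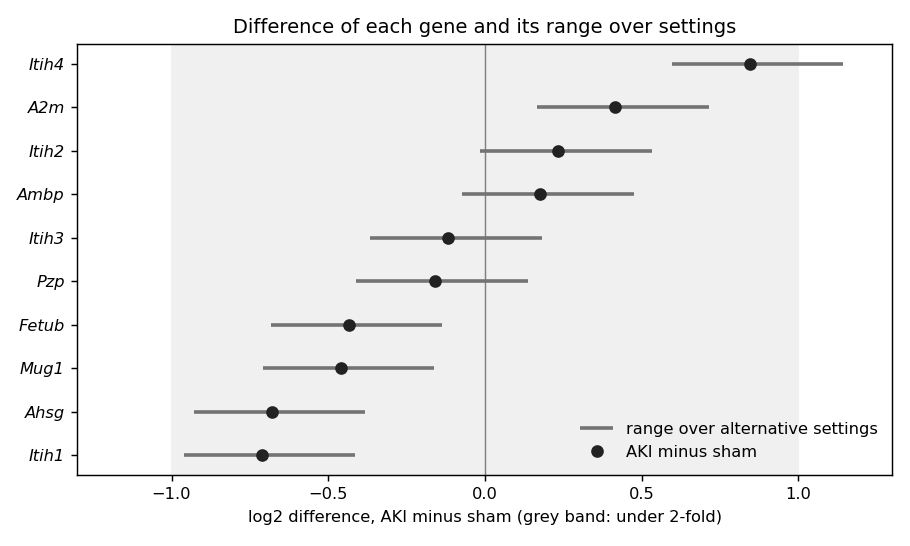
Log2 difference (AKI minus sham) of each gene as points, ordered by size, with lines spanning the lowest to the highest value over the alternative settings and a grey band for differences under 2-fold. Itih4 at 0.85 and Itih1 at -0.71 mark the ends, and the lines of Itih2, Ambp, Itih3 and Pzp cross 0.

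Of the alternative settings, only the different scalings of the arrays could change a sign. The others could only return the same sign or no value. Under all of these scalings the sign held for Itih4, A2m, Fetub, Mug1, Ahsg and Itih1. It did not for the genes in the middle of the order. Pzp (0.14) and Itih3 (0.18) turned positive when the arrays were centred on 18 hybridization control probe sets. Itih2 (-0.02) and Ambp (-0.07) turned negative when they were centred on 9 reference genes. Centring on the hybridization controls also put Itih4 past 2-fold, at 1.14, the only one of the 10 to pass it under any setting. The median over all genes was 0.28 under that centring and -0.27 with the reference genes. Among all genes past 2-fold, higher ones made up 67.5% and 28.1% under these centrings, against 45.6% with the authors' scaling.

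Probe sets of the same gene disagreed less in bright genes (SD of 0.50) than in the dimmest class (0.86). The bright members were therefore set beside genes of similar signal. Besides the 9 bright members, 262 genes had a mean level at least as high as Itih1, the dimmest of the 9. Of these, 19.1% differed by 2-fold, 11.5% being higher and 7.63% lower, and their median was -0.13. The 9 had 0 of 9 past 2-fold and a median of -0.16. Of the 262 genes, 34 had a larger difference than Itih4. On the lower side, 40 lay below Itih1 and 42 below Ahsg. Mug1 and Fetub had 70 and 73 of the 262 below them. Whether the brightest probe sets were near saturation was not tested. The highest signal of any probe set was 127787 after sham surgery and 106903 after kidney injury.

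**Figure D3:**
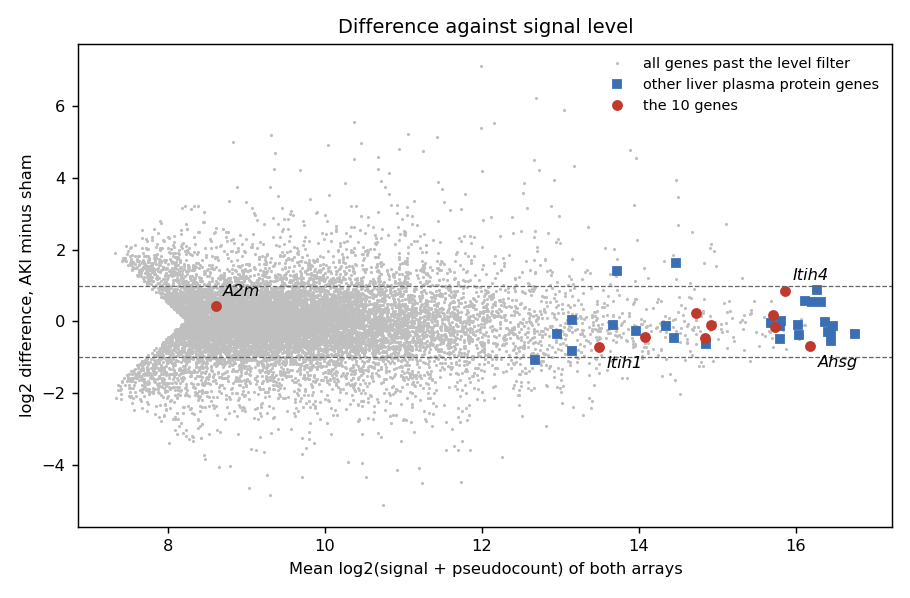
Log2 difference (AKI minus sham) against the mean log2(signal + 71.8) of both arrays for all genes past the level filter (grey), the 10 genes (circles) and the other liver plasma protein genes (squares), with dashed lines at 2-fold. Apart from A2m the 10 genes lie at the bright end between -0.71 and 0.85, among the other plasma protein genes.

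Other abundant plasma proteins made by the liver gave values of the same order. All 27 matched genes passed the level filter. Of these, 8 were above 0 and 19 below it, and their median was -0.13. At least 2-fold higher were 2 and lower 1, against 10.4% and 12.4% of all genes. The 2 higher genes were Orm1 (1.62), which encodes orosomucoid, and Apcs (1.39), which encodes serum amyloid P. The lower one was Serpind1 (-1.09), which encodes heparin cofactor II. The fibrinogen chain genes Fga (0.53), Fgb (0.88) and Fgg (0.55), and Hp (0.57), which encodes haptoglobin, lay on the side of Itih4. Alb, the albumin gene (-0.34), and Apoa1 (-0.54), the main protein of high-density lipoprotein, lay on the side of the fetuins, as did Proc (-0.82), which encodes protein C, and Azgp1 (-0.62). Other genes of plasma proteins known from the acute phase were at or below 0, namely Hpx (-0.01, hemopexin), Cp (-0.06, ceruloplasmin), Cfb (-0.28, complement factor B) and Serpina1b (-0.30, an alpha-1-antitrypsin). One dimmer probe set of Cp was at 3.75. Fgb, with signals of 58222.6 and 106882.4, was the gene of this list nearest to Itih4. No test of a difference between this list and the 10 genes was possible.

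All 8 markers of hepatocytes, the cells that make most of these proteins, were measured and none was at least 2-fold different, against 22.9% of all genes. Tat (0.56) was the only 1 above 0, and 7 were below it. Ass1 was lowest (-0.79), with weak signals of 371.4 and 185.4, a ratio of 0.499 without the added constant. A dimmer probe set of Apob was at 0.71. The median of the 8 was -0.38 and their summed signal was 527379 after sham surgery and 438525 after kidney injury. The differences of Mug1 (-0.46) and Fetub (-0.43) were close to that median. Those of Ahsg and Itih1 were lower, but above that of Ass1 and so within the range of the 8. In whole liver, fewer cells of a type and less RNA per cell cannot be told apart. The neutrophil list had a summed signal of 2052.4 and 6662.5 over 7 matched genes, none listed at 0. Past the level filter were 5 of them, and 3 differed by 2-fold, all higher: S100a8 (3.17), S100a9 (2.72) and Ngp (1.12), while Mpo was at -0.03. Over all genes, 10.4% were higher by 2-fold. Macrophage markers had a summed signal of 12568.8 and 8051.7 over 7 genes, with a median of -0.51. At least 2-fold higher was 1, Marco (1.46), and lower were 2, Clec4f (-1.37) and Cd5l (-1.24). Over all genes these shares were 10.4% and 12.4%. Under 2-fold were Vsig4 (-0.57), Adgre1 (-0.51), Csf1r (-0.46) and Cd68 (0.62). The part of these cells in the values above was not tested.

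Genes related by sequence to the 10 were represented by 10 matched genes, of which 7 passed the level filter. All 7 were under 2-fold, against 22.9% of all genes past it, and their median was 0.12. They ranged from -0.76 for Hc, which encodes complement factor C5 of the macroglobulin family, to 0.32 for A2ml1, with signals of 283.8 and 372.4. Kng1, the kininogen gene of the cystatin superfamily, was at 0.12 and Cst3, the cystatin C gene, at -0.02.

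The receptor that removes macroglobulin complexes was lower in signal by less than 2-fold. Lrp1 had signals of 7274.0 after sham surgery and 4366.6 after kidney injury (-0.73), while another, dimmer probe set of it was at 0.07. Its chaperone gene Lrpap1 was at -0.77, and its 4 probe sets ranged from -0.77 to -0.14.

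Among genes of hyaluronan and its binding partners, 15 were matched and 11 of them passed the level filter. Of these 11, 1 was at least 2-fold higher and 1 lower, against 22.9% of all genes past 2-fold, and the median was 0.15. The higher one was Lyve1, a hyaluronan receptor of sinusoidal and lymphatic endothelium, with signals of 376.9 and 1478.0 (1.79) and its other probe set at 2.71. The other hyaluronan receptor of sinusoidal endothelium, Stab2, was at -0.59. Ugdh (-1.11) makes the UDP-glucuronate that hyaluronan and chondroitin are built from, and was the lower one, with signals of 5030.0 and 2297.6. Ugp2, one step before it, was at -0.91, and its 5 probe sets ranged from -1.33 to -0.62. Tnfaip6, whose product moves heavy chains from bikunin to hyaluronan, was below the level filter, with signals of 22.1 and 16.5. The hyaluronan synthase gene Has2 was below it too, and its weak signals of 196.0 and 52.1 gave -1.11. Has1, a synthase gene past the filter, went the other way, with signals of 354.7 and 616.0 (0.69). Cemip2 (0.73, another probe set at 1.24), Cd44 (0.69) and Hyal2 (0.54) were above 0 as well. Of the 11 genes past the filter, 6 were above 0 and 5 below it.

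Chondroitin sulfate genes, whose products build the chain that joins heavy chains to bikunin, went both ways. Of 14 matched genes 10 passed the level filter, with a median of 0.06. Of these 10, 1 was at least 2-fold higher and 1 lower, against 22.9% of all genes past 2-fold in either direction. B3gat3, which adds the glucuronate of the linker, was at -1.34 with signals of 1364.7 and 495.7, and B3galt6, which acts one step earlier, was at -0.83. Csgalnact2, which starts the chondroitin chain, was at 1.41, with weak signals of 112.8 and 419.1. Xylt2, which starts the linker, was below the level filter, with signals of 170.3 and 24.4 (-1.33). The B3gat3 and Csgalnact2 values each rest on 1 probe set past the filter.

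Of 10 genes of proteases that these inhibitors meet or that process them, 8 passed the level filter. Among these, 1 was at least 2-fold lower and 0 higher, against 12.4% and 10.4% of all genes, and the median was 0.02. Klkb1, the gene of plasma prekallikrein, had signals of 5202.4 and 1328.8 (-1.91). Plg, the plasminogen gene (-0.50), and F2, the prothrombin gene (-0.34), were under 2-fold. Elane (0.76), which encodes neutrophil elastase, had weak signals of 192.3 and 376.5. The proprotein convertase genes Pcsk6 (0.48), Pcsk5 (0.38) and Furin (-0.13) were also under 2-fold, although other probe sets of Pcsk5 reached 1.24.

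Genes of interleukin-6 signalling and of liver transcription factors had far wider differences than the 10 plasma protein genes. The 15 measured genes had a median of -0.72. Of them, 4 were at least 2-fold higher and 3 lower, against 10.4% and 12.4% of all genes. Higher were Socs3 (4.75), the feedback inhibitor of this signal, Stat3 (2.53), Cebpd (2.33), an acute phase transcription factor, and Il6st (1.05), the signalling receptor chain. The 4 probe sets of Stat3 ranged from -0.08 to 2.53, and those of Cebpd from 0.58 to 2.33. For Il6st the 4 probe sets ran from 0.42 to 1.45, so its 2-fold call depends on the probe set used. Lower were the nuclear receptor gene Nr1h4 (-2.31), Onecut1 (-2.09) and Foxa3 (-1.88), which encode transcription factors of hepatocytes. Cebpa (-0.93) and Hnf4a (-0.83) lay on the lower side by less than 2-fold, and Cebpb was at 0.84. Against the range from -2.31 to 4.75 in this list, the 10 genes spanned -0.71 to 0.85. Most genes of this list were dimmer than the 9 bright members, so the ranges are not matched for brightness. The 262 genes as bright as those 9 spanned -2.03 to 4.77, and all genes past the filter -5.12 to 7.13.

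**Figure D4:**
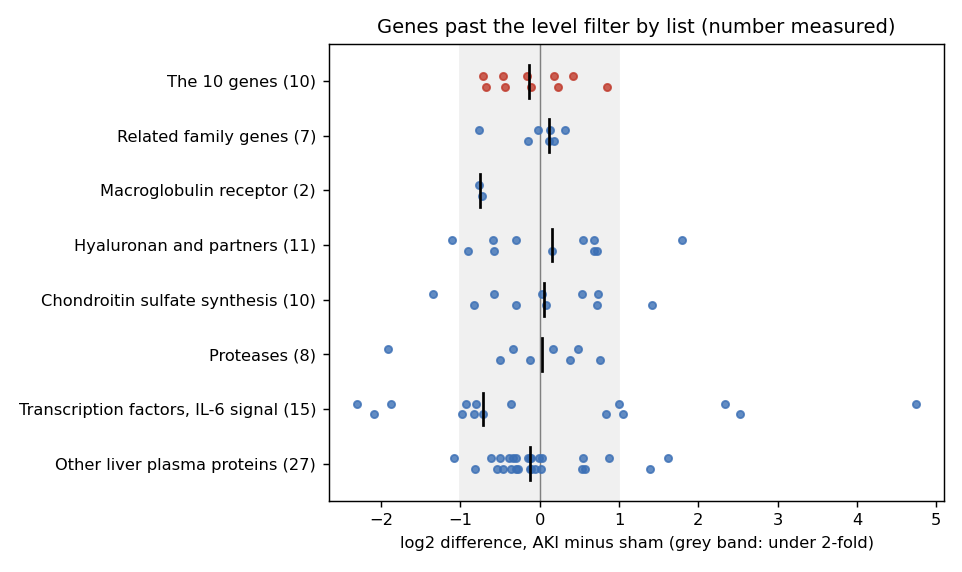
Log2 difference (AKI minus sham) of each gene past the level filter in each list (points), with the list median as a vertical bar and a grey band for differences under 2-fold. The 10 genes all lie inside the band, while the interleukin-6 and transcription factor list runs from -2.31 to 4.75.

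Genes linked to the action or clearance of fetuin-A were measured in 6 cases, with a median of -0.31. Of these, 1 was at least 2-fold higher and 0 lower, against 10.4% and 12.4% of all genes. Mgp, which encodes matrix Gla protein, another inhibitor of calcification, had weak signals of 85.9 and 355.5 (1.44). Asgr1 (-0.78) and Asgr2 (-0.77), the subunits of the asialoglycoprotein receptor, were close to each other. Insr, the insulin receptor gene, was at -0.72, with probe sets from -1.40 to 0.35.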

How the data were processed

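Signal intensity values per probe set were used as deposited by the authors, on a linear scale. Which software computed them is not given in these sources. Per the labels' protocols, Trizol was used to isolate RNA, of which 8 ug went into biotin-labelled cRNA. On both arrays the mean signal, with 2% of probe sets trimmed at either end, was 500.00, so a common scaling was already in place. Of 45037 non-control probe sets, 34945 had 1 gene symbol, 932 several and 9160 none. Genes were represented by the single-symbol probe set with the highest mean level. All 10 symbols matched a RefSeq gene table (GRCm38.p6) by Entrez number. The level filter, the added constant (71.8) and the 2-fold threshold are as described in the text. With 1 array per group no test was made, and the number of arrays limits the precision. All members were to be named, and of the other lists the genes past 2-fold or with the largest differences. Some further genes of these lists, such as Alb, Hpx and Furin, were named after their values were seen. The members and lists were chosen with earlier results of these data known. The computation was tested on simulated data. Python 3.11.15, numpy 2.4.6, pandas 2.3.3, statsmodels 0.14.6 and matplotlib 3.10.9 were used.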

Additional observations from a re-analysis of the deposited data

How the results depend on the processing

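The 11 alternatives were 5 scalings (median, lowess, hybridization control and reference gene centring, and quantile normalization), pseudocounts of 1 and of the table median (228.7), averaging of probe sets per gene, removal of those whose name ends in _a_at, _s_at or _x_at, and no level filter or one at the 75th percentile. The median of the 10 genes was -0.39 when centred on reference genes and 0.16 when centred on hybridization controls, against -0.14 with the deposited scaling, because these centrings move every gene alike. The count at least 2-fold higher was 1 with hybridization controls and 0 in the other settings, and the count at least 2-fold lower was 0 in every setting. Of 106 values of single genes under the alternatives, 4 had the opposite sign, those named above for Pzp, Itih3, Itih2 and Ambp. Many of the 106 could not differ in sign, since only the 5 scalings could change it. All 4 came from centring on hybridization controls or on reference genes. Itih4 ranged from 0.60 to 1.14, Itih1 from -0.96 to -0.41 and Ahsg from -0.93 to -0.38. Leaving out suffixed probe sets removed Itih4, Ahsg and Fetub, and the stricter filter removed A2m, so they have no value there. The brightness comparison and the median without A2m (-0.16) were chosen after seeing the data. No paired analysis was possible because each group has 1 array.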
